A study of Mus musculus with 7 samples.

Results

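The genes described here are 3 aldehyde oxidases (Aox1, Aox3 and Aox4), 4 ABCC efflux pumps (Abcc1 to Abcc4) and 2 targets of the transcription factor NRF2 (Nqo1 and Gclc). They are 9 of the 43346 genes in the deposited table, found by matching Ensembl identifiers to gene symbols. They were picked with the levels of these genes in these tumors already known, so what differs between the bone marrow genotypes is given for them as a description and supports no test. Of the 9, 8 had enough counts to be among the 15810 genes compared with edgeR, and Aox3 did not.

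RNA was measured in 7 whole colon tumors, each from a wild-type recipient of transplanted bone marrow (BM). The labels give C57BL6/J as the strain of the recipients, and the study's methods call them congenic CD45.1 mice, whose blood cells carry another form of CD45 than the graft. In 4 mice the BM was Dnmt3a+/Δ, heterozygous for a deletion of the DNA methyltransferase gene Dnmt3a, and in 3 mice it was Dnmt3a+/+. Donors in both groups carried Mx1-Cre, an inducible recombinase that acts in blood-forming cells and beyond, and had received poly(I:C) to switch it on, so the deletion is a property of the graft and not of the colon epithelium. All recipients were lethally irradiated, then given the carcinogen azoxymethane once, at 10 mg/kg, and dextran sulfate sodium, a colitis-inducing polymer, at 3% for 3 cycles, which together lead to colitis-associated cancer (CAC). The labels give the recipients as 8 weeks old, the study's methods give a different age, and the labels name no sex, tumor size or stage. The tumors came from 2 transplantation experiments: BMT18 (replicates 1 and 2 of each genotype) and BMT8 (Dnmt3a+/+ replicate 3, Dnmt3a+/Δ replicates 3 and 4).

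Aldehyde oxidases are cytosolic enzymes that hold molybdenum, iron-sulfur and flavin cofactors and oxidize aldehydes, including retinal, and nitrogen heterocycles found in many drugs. Mice keep several of them side by side on a chromosome, where humans have kept only AOX1. In mice, Aox1 and Aox3 are known from liver, Aox2 from the nasal mucosa, and Aox4 from the Harderian gland and from squamous epithelia such as skin and tongue. ABCC proteins (multidrug resistance-associated proteins) use ATP to pump glutathione, glucuronide and sulfate conjugates out of cells. Abcc2 does so across the apical membrane of hepatocytes and enterocytes, Abcc3 across the basolateral membrane, Abcc1 in many cell types, and Abcc4 also exports cyclic nucleotides and prostaglandins. NRF2 answers electrophiles and oxidants by binding antioxidant response elements (ARE), and the quinone reductase Nqo1 and Gclc, the catalytic subunit of the first enzyme of glutathione synthesis, are textbook targets.

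The sequences just upstream of Aox4 and Abcc2 are shown because these members differed most between the groups of tumors. They are RefSeq sequences on GRCm38.p6, plus strand, from windows of 250 bases before to 50 bases after a gene's start. Aox4 upstream is chr1:58210147-58210396 and Abcc2 upstream is chr19:43782058-43782191. The short line lies in the first exon of Abcc2 as GENCODE M21 draws it, at chr19:43782204-43782224, and its capitals mark a match to the ARE core.
Aox4 upstream: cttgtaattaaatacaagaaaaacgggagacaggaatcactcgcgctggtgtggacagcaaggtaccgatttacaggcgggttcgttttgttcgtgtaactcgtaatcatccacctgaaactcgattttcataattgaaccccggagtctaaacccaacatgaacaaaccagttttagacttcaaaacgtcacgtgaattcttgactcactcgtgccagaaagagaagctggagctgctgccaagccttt
Abcc2 upstream: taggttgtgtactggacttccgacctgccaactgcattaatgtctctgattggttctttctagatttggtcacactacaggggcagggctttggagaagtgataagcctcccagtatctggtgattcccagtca
Abcc2 ARE core match: ctgggaTGACATAGCattcat

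The ARE core searched was TGACNNNGC, on both strands. The RefSeq table held windows for 6 of the 9 members (Aox1, Aox3, Aox4, Abcc2, Abcc4 and Nqo1). Abcc2 had 1 match, and Abcc4 had 1 match in each of its 2 windows. The windows of Aox1, Aox3, Aox4 and Nqo1 held no match, although Nqo1 is a known NRF2 target. Of all 32851 windows, 12.4% held a match, so a match is common and describes only the letters. Nothing here measured the binding of any factor.

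Total counts were 38472738 to 64314999 per tumor. Levels are CPM, a gene's counts scaled to a fixed library size after TMM correction, and differences are log2 fold changes with their standard error (SE). Colon epithelial markers were abundant in all 7 tumors (10 genes, summed CPM 19186 to 37363 with Dnmt3a+/+ BM and 10267 to 23662 with Dnmt3a+/Δ BM), as the label primary colon has it. The 10 small intestinal markers summed to 17.6 to 88 CPM over the 7 tumors, mostly Apob (1.8 to 53.4 CPM), Anpep and Fabp2, while Sis and Apoa4 were at or under 0.0312 CPM in every tumor. Markers of squamous epithelium were high too and differed greatly between tumors: the summed CPM of 10 genes was 26824, 5045 and 5627 in the Dnmt3a+/+ tumors (replicates 1 to 3) and 29688, 273, 5614 and 5334 in the Dnmt3a+/Δ tumors (replicates 1 to 4). Xist, the transcript of the inactive X chromosome, was 175 to 265 CPM in the 3 BMT8 tumors and 0.0156 to 0.2 CPM in the 4 BMT18 tumors. What differs with Xist and what differs with the experiment cannot be told apart. Dnmt3a itself was 24.3, 23.1 and 20.2 CPM with Dnmt3a+/+ BM and 27.7, 43, 28.3 and 22 CPM with Dnmt3a+/Δ BM. Those values do not check the graft, which is a part of each tumor.

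Across the members, the groups did not overlap for 5 genes. Aox3, Aox4, Abcc2 and Abcc4 were higher in every Dnmt3a+/Δ tumor than in any Dnmt3a+/+ tumor, and Abcc3 was lower in every one. Aox1, Abcc1, Nqo1 and Gclc overlapped. Over all 15810 genes tested, 6.12% were higher without overlap and 6.32% lower without overlap. Since the members were picked on this contrast, the counts of 3 tested members higher and 1 lower are not set against those shares.

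**Figure D1:**
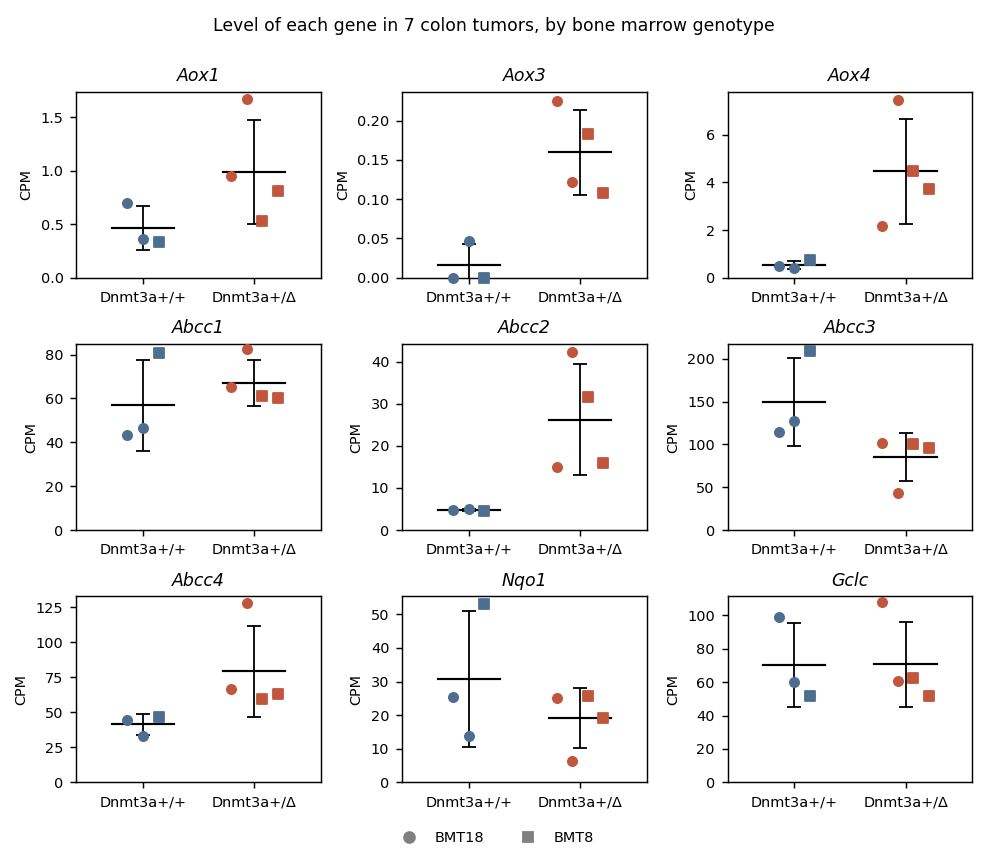
CPM of the 9 members in 7 tumors (vertical axis from 0, a separate scale for each gene), by BM genotype. Points are single tumors, circles BMT18 and squares BMT8. Bars are the mean ± SD of 3 Dnmt3a+/+ or 4 Dnmt3a+/Δ tumors. Aox4 runs from 2.17 to 7.46 CPM and Abcc2 from 14.9 to 42.3 CPM with Dnmt3a+/Δ BM, both above the Dnmt3a+/+ tumors, while Abcc3 lies below them and Gclc shows no gap.

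Aox4 had the largest fitted difference of the 8 tested members. It was at 0.484, 0.39 and 0.734 CPM in Dnmt3a+/+ replicates 1 to 3 (18, 25 and 24 counts). With Dnmt3a+/Δ BM it was at 2.17, 7.46, 4.49 and 3.73 CPM in replicates 1 to 4 (87, 366, 221 and 138 counts). The gene was thus barely read in every Dnmt3a+/+ tumor, and the lowest Dnmt3a+/Δ tumor stood 2.96 times above the highest of them. The means were 0.536 ± 0.178 CPM (SD, n = 3) and 4.46 ± 2.22 CPM (SD, n = 4), and the fitted log2 fold change was 3.06 (SE 0.53), or 8.34-fold.

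The other aldehyde oxidases had lower levels than Aox4 in the Dnmt3a+/Δ tumors. Aox1 was at 0.699, 0.359 and 0.336 CPM with Dnmt3a+/+ BM and at 0.948, 1.67, 0.528 and 0.811 CPM with Dnmt3a+/Δ BM, with a log2 fold change of 1.09 (SE 0.54). Its groups overlapped, since Dnmt3a+/+ replicate 1 stood above Dnmt3a+/Δ replicate 3. Aox3 had 0, 3 and 0 counts with Dnmt3a+/+ BM and 9, 6, 9 and 4 counts with Dnmt3a+/Δ BM, that is, 0.225, 0.122, 0.183 and 0.108 CPM in the latter. A count of 0 allows up to 0.0806 CPM in Dnmt3a+/+ replicate 1 and 0.0918 CPM in replicate 3, taking 3 counts as the limit. Summed over the groups, 28 counts stood against 3, a ratio of 7.13 after scaling with an exact 95% interval of 2.2 to 36.6 that covers counting error only. Aox2, which is no member but lies in the same cluster, was at 0.0806 to 0.336 CPM with Dnmt3a+/+ BM and 0.163 to 0.399 CPM with Dnmt3a+/Δ BM, and its groups overlapped (log2 fold change 0.50, SE 0.59).

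The 4 genes follow one another on chromosome 1, all on the plus strand of GRCm38: Aox1 at chr1:58029931-58106413, Aox3 at chr1:58113130-58200698, Aox4 at chr1:58210397-58268597 and Aox2 at chr1:58278326-58380259. Their nearest protein-coding neighbours had smaller fitted differences than Aox4. On the near side of Aox1, Sgo2a, which protects cohesin at centromeres, had a log2 fold change of 0.31 (SE 0.24), Kctd18 one of 0.24 (SE 0.20) and Spats2l one of -0.93 (SE 0.38). Beyond Aox2, the values were -0.17 (SE 0.15) for Bzw1, 0.06 (SE 0.21) for the splicing-factor kinase Clk1 and 0.02 (SE 0.27) for Ppil3. All 6 neighbours were read at 7.28 CPM or more in every tumor, and Kctd18 was at 7.28 to 9.33 CPM throughout, close to the highest value of Aox4. Reads that fit more than 1 of the related Aox genes were divided among them by the authors' estimation, which bears most on the low counts of Aox3 and Aox2.

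**Figure D2:**
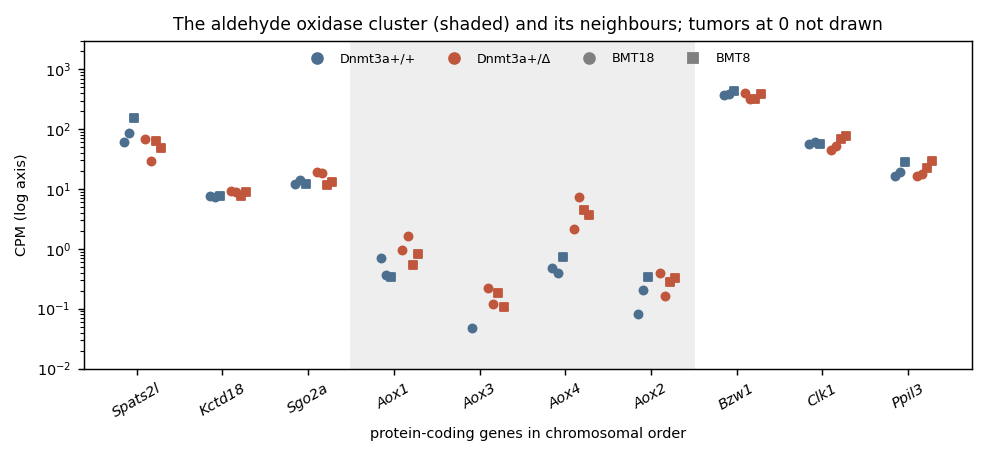
CPM (log axis) of the 4 aldehyde oxidases (shaded) and the 3 protein-coding genes on each side, in chromosomal order. Points are single tumors, blue Dnmt3a+/+ and red Dnmt3a+/Δ BM, circles BMT18 and squares BMT8. Aox4 shows a gap between the groups, from 0.734 to 2.17 CPM, and the 6 neighbours show none of that size. The 2 Dnmt3a+/+ tumors with 0 counts of Aox3 cannot be drawn on a log axis.

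Among the pumps, Abcc2 (chr19:43782192-43840740, plus strand) differed most. Its level was nearly the same in the 3 Dnmt3a+/+ tumors, at 4.84, 5.04 and 4.62 CPM. With Dnmt3a+/Δ BM it was at 14.9, 42.3, 31.6 and 15.9 CPM. The Dnmt3a+/Δ tumors were all higher and much more spread out, and the lowest of them stood 2.95 times above the highest Dnmt3a+/+ tumor. The means were 4.83 ± 0.212 CPM (SD, n = 3) and 26.2 ± 13.2 CPM (SD, n = 4), with a log2 fold change of 2.44 (SE 0.42), or 5.41-fold.

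Abcc4 (chr14:118482692-118706219, minus strand) differed in the same direction but less. It was at 44.8, 32.8 and 46.6 CPM with Dnmt3a+/+ BM and at 66.5, 128, 59.8 and 63 CPM with Dnmt3a+/Δ BM, a log2 fold change of 0.94 (SE 0.30). The groups were separated by a narrow step, from 46.6 to 59.8 CPM, and Dnmt3a+/Δ replicate 2 stood far above the other 3. Abcc1 (chr16:14361558-14475737, plus strand) was at 43.4, 46.6 and 80.7 CPM with Dnmt3a+/+ BM and at 65.2, 82.5, 61 and 60 CPM with Dnmt3a+/Δ BM. Its groups overlapped because Dnmt3a+/+ replicate 3 was as high as the highest Dnmt3a+/Δ tumor, and the log2 fold change was 0.24 (SE 0.25).

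Abcc3 (chr11:94343295-94392997, minus strand), the basolateral pump, was lower instead. It was at 114, 127 and 209 CPM with Dnmt3a+/+ BM and at 102, 43.4, 101 and 96.1 CPM with Dnmt3a+/Δ BM. The lowest Dnmt3a+/+ tumor was 1.12 times the highest Dnmt3a+/Δ tumor, so the gap was small, and the log2 fold change was -0.81 (SE 0.34).

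The NRF2 targets set beside them were not higher with Dnmt3a+/Δ BM. Nqo1 (chr8:107388225-107403206, minus strand) was at 25.4, 13.8 and 53 CPM with Dnmt3a+/+ BM and at 25.2, 6.34, 25.8 and 19.3 CPM with Dnmt3a+/Δ BM. Its log2 fold change of -0.68 (SE 0.57) rested on Dnmt3a+/+ replicate 3, and without that tumor it was -0.04. Gclc (chr9:77754535-77794485, plus strand) was at 98.9, 60.3 and 51.5 CPM with Dnmt3a+/+ BM and at 108, 60.4, 62.6 and 51.7 CPM with Dnmt3a+/Δ BM. Here the 2 groups covered nearly the same range, and the log2 fold change was 0.01 (SE 0.32). Within each tumor, the log2 ratio of Abcc2 to Nqo1 was -2.39, -1.45 and -3.52 with Dnmt3a+/+ BM and -0.76, 2.74, 0.29 and -0.28 with Dnmt3a+/Δ BM. The ratio of Abcc2 to Gclc was -3.80 ± 0.48 (SD, n = 3) and -1.52 ± 1.02 (SD, n = 4) on the same scale. Both ratios carry the difference of Abcc2, which was picked on this contrast, and add no evidence of their own.

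**Figure D3:**
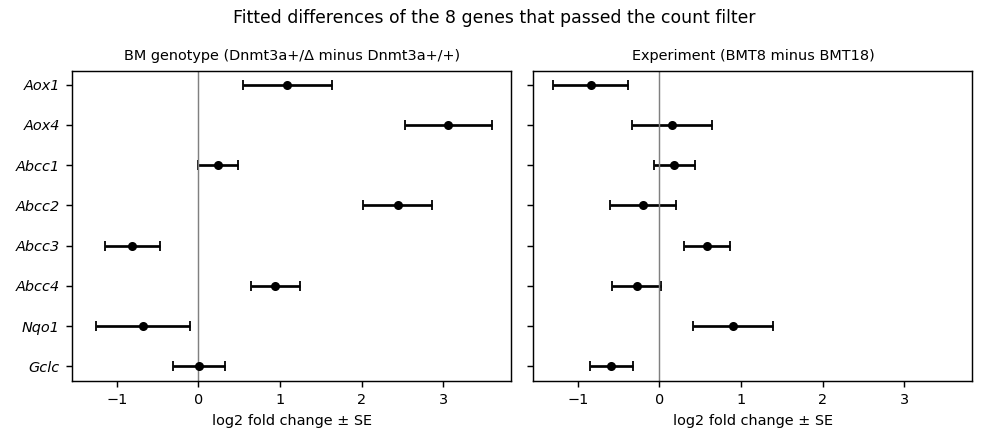
Log2 fold change ± SE of the 8 tested members from edgeR (horizontal axis), between BM genotypes on the left and between experiments on the right. On the left, Aox4 at 3.06 and Abcc2 at 2.44 lie farthest from 0. On the right all 8 lie between -0.84 and 0.90.

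In the fit over all genes, edgeR called 0 of 15810 genes between the BM genotypes (adjusted p under 0.05 and absolute log2 fold change over 1), and so none of the 8 members. The lowest adjusted p was 0.361 over all genes and also over the members, in the edgeR quasi-likelihood test. At an unadjusted p under 0.05, 3 members were higher (Aox4, Abcc2 and Abcc4) and 1 was lower (Abcc3), against 5.83% of all genes higher and 5.20% lower. DESeq2, the tool the study used, called 300 genes, among them Aox4 (adjusted p = 4.0e-06) and Abcc2 (adjusted p = 1.9e-05), where 1.51% of its genes were called higher. These p-values describe genes picked on the same tumors and are no independent evidence. The labels call the tumors of a group biological replicates.

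Levels of different genes were compared per kb of exon, where the length is that of all annotated exons of a gene merged. That length was 15092 bases for Abcc1 and 5698 to 8532 bases for Abcc2 to Abcc4, which lowers Abcc1 beside them. With Dnmt3a+/+ BM, the mean CPM per kb was 26.3 for Abcc3, 19.8 for Nqo1, 18.7 for Gclc, 6.48 for Abcc4, 3.77 for Abcc1, 0.566 for Abcc2, 0.0637 for Aox4, 0.0535 for Aox1 and 0.00222 for Aox3. With Dnmt3a+/Δ BM, the order was Gclc, Abcc3 at 15, Abcc4 at 12.4, Nqo1 at 12.3, Abcc1 at 4.45, Abcc2 at 3.07, Aox4 at 0.53, Aox1 at 0.114 and Aox3 at 0.0227 CPM per kb. Many neighbours in that order overlapped between tumors of 1 group. With Dnmt3a+/+ BM this was so of Abcc3 and Nqo1, Nqo1 and Gclc, and Abcc4 and Abcc1, and with Dnmt3a+/Δ BM of every neighbouring pair from Gclc down to Abcc2. Aox4 and Aox1 overlapped with Dnmt3a+/+ BM and did not with Dnmt3a+/Δ BM.

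The sum of Abcc1 to Abcc4 was 30.5, 31.1 and 49.8 CPM per kb with Dnmt3a+/+ BM (mean 37.1 ± 11, SD, n = 3). With Dnmt3a+/Δ BM it was 34.3, 38, 34.8 and 32.6 CPM per kb (mean 34.9 ± 2.27, SD, n = 4). The similar means rested on Dnmt3a+/+ replicate 3, since replicates 1 and 2 lay below every Dnmt3a+/Δ tumor. The make-up of the sum differed between the groups. Abcc3 made up 65.7%, 71.6% and 73.5% of the sum with Dnmt3a+/+ BM, and 52%, 20.1%, 50.8% and 51.8% with Dnmt3a+/Δ BM. The apical pump Abcc2 made up 1.86%, 1.9% and 1.09% with Dnmt3a+/+ BM and 5.09%, 13%, 10.7% and 5.72% with Dnmt3a+/Δ BM. Abcc4 took 23%, 16.5% and 14.6%, and then 30.4%, 52.5%, 26.9% and 30.3%. In Dnmt3a+/Δ replicate 2, Abcc4 and not Abcc3 was the most abundant of the 4, at 52.5%.

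The oxidases differed both in sum and in make-up. The sum of Aox1 to Aox4 was 0.152, 0.13 and 0.184 CPM per kb with Dnmt3a+/+ BM and 0.468, 1.12, 0.669 and 0.608 CPM per kb with Dnmt3a+/Δ BM. Aox4 made up 37.9%, 35.8% and 47.3% of it in the former and 55.1%, 78.8%, 79.7% and 72.9% in the latter. It was the most abundant of the 4 in all 4 Dnmt3a+/Δ tumors and also in Dnmt3a+/+ replicates 2 and 3. Aox1 was the most abundant in Dnmt3a+/+ replicate 1 (52.9%). These shares rest on few counts, at most 26 for any Aox gene in a Dnmt3a+/+ tumor.

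**Figure D4:**
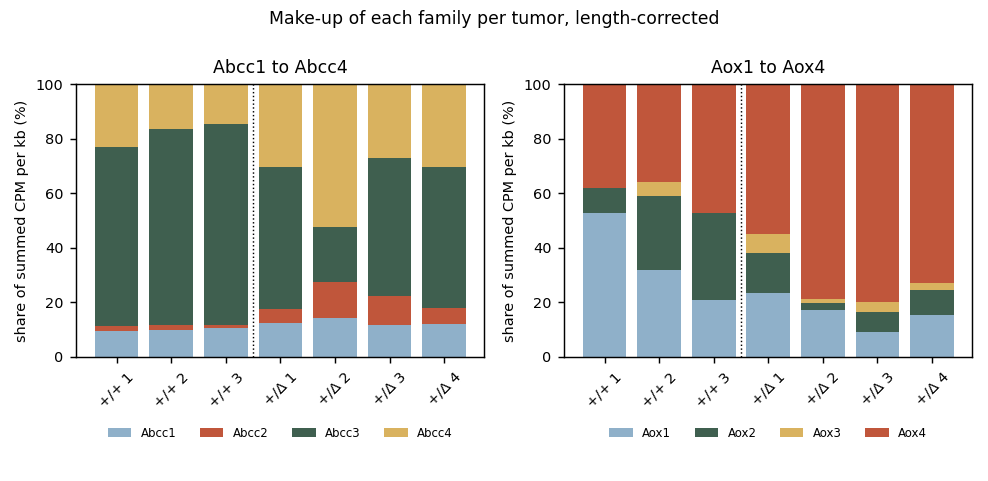
Share of each gene in the summed CPM per kb of exon (vertical axis, percent) of Abcc1 to Abcc4 on the left and Aox1 to Aox4 on the right, 1 bar per tumor, Dnmt3a+/+ replicates 1 to 3 before the dotted line and Dnmt3a+/Δ replicates 1 to 4 after it. The Abcc2 band widens from at most 1.9% to at least 5.09%, and the Aox4 band from at most 47.3% to at least 55.1%.

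A single tumor, Dnmt3a+/Δ replicate 2, had the most extreme levels. Of the 9 members, 5 were highest of all 7 tumors in it (Aox1, Aox4, Abcc1, Abcc2 and Abcc4), and 2 were lowest (Abcc3 and Nqo1). The share of all genes with their highest or lowest level in this tumor is not given here. The counts are thus not read as particular to the members. The same tumor had the lowest squamous marker sum, 273 CPM, the highest fibroblast marker sum, 1091 CPM against 180 to 396 CPM in the other 6, and the highest endothelial marker sum, 189 CPM against 20.9 to 94.8 CPM. Without it, the log2 fold change was 2.73 for Aox4, 2.14 for Abcc2, 0.64 for Abcc4 and 0.74 for Aox1. In whole tumors, fewer cells of a type and less RNA per cell cannot be told apart.

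Whether the members differed between the transplantation experiments was tested in the same tumors, since this contrast had no part in picking them. With BM genotype in the model, 0 of the 8 members passed an unadjusted p under 0.05 between BMT8 and BMT18, where 19.4% of all genes did, and their adjusted p ran from 0.279 to 0.879 in edgeR. The log2 fold changes (BMT8 minus BMT18) were 0.15 (SE 0.49) for Aox4, -0.20 (SE 0.40) for Abcc2, -0.84 (SE 0.46) for Aox1, 0.90 (SE 0.49) for Nqo1 and -0.59 (SE 0.26) for Gclc. For the other pumps they were 0.18 (SE 0.25) for Abcc1, 0.58 (SE 0.28) for Abcc3 and -0.28 (SE 0.30) for Abcc4. A p that misses the threshold does not show the levels to be alike, and the value of Aox4 was 0.88 without Dnmt3a+/Δ replicate 2. Over all genes edgeR called 1 gene (0.00633%), Xist, and DESeq2 called 509 (3.12%), none of them a member.

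Within each experiment, the difference between BM genotypes had the same direction for 7 of the 8 tested members, though that of Gclc was small. The members were picked on this difference in the same tumors, and BMT8 holds 1 Dnmt3a+/+ tumor. The values are thus a description and no replication. In mean log2 CPM (Dnmt3a+/Δ minus Dnmt3a+/+), Aox4 differed by 3.09 in BMT18 and 2.41 in BMT8, and Abcc2 by 2.34 and 2.27. Abcc3 differed by -0.86 and -1.08, Abcc4 by 1.26 and 0.40, and Aox1 by 1.25 and 0.88. Nqo1 was lower in both, by -0.56 and -1.25, and Gclc was at 0.07 and 0.14. The exception was Abcc1, at 0.70 in BMT18 and -0.42 in BMT8, where the single Dnmt3a+/+ tumor was the high one. Of the 8 members, 1 (Abcc1) passed an unadjusted p under 0.05 in the test of the interaction, as 4.62% of all genes did, and its adjusted p was 1 in edgeR.

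The other ABCC genes did not share 1 direction. Of 7 tested, 1 was higher and 2 were lower at an unadjusted p under 0.05, where 5.83% of all genes were higher and 5.20% lower, and the median of their log2 fold changes was -0.28, where that of all genes was 0.00. Abcc6, mutated in pseudoxanthoma elasticum, was at 1.99, 2.79 and 1.5 CPM with Dnmt3a+/+ BM. With Dnmt3a+/Δ BM it was at 0.624, 0.55, 1.04 and 0.649 CPM (log2 fold change -1.55, SE 0.41). DESeq2 called it lower (adjusted p = 0.0237). Abcc8, the sulfonylurea receptor, was at -1.29 (SE 0.55), and Abcc12 at 2.03 (SE 0.80), both at or below 3.22 CPM in every tumor. Of the 4 tested efflux pumps of the ABCB and ABCG families, 0 were higher and 1 was lower, Abcg2, the breast cancer resistance protein (log2 fold change -0.75, SE 0.28), and the median was -0.11, or -0.74 at a minimum count of 50, 0.22 without Dnmt3a+/+ replicate 1 and 0.09 with library sizes alone, a scaling that moved the median of all genes to 0.21. Abcb1a, which codes for P-glycoprotein, ran from 17.2 to 126 CPM with overlap between the groups.

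The NRF2 pathway beyond Nqo1 and Gclc was read in the same way. Of 26 tested target genes, 1 was higher and 3 were lower at an unadjusted p under 0.05 (5.83% and 5.20% of all genes), with a median of -0.16, or 0.06 with library sizes alone and 0.16 without Dnmt3a+/+ replicate 3. The lower ones were Cbr1, a carbonyl reductase (-0.80, SE 0.18), Prdx6, a peroxiredoxin (-1.02, SE 0.24), and the sulfiredoxin Srxn1 (-0.45, SE 0.19). The higher one was the heme oxygenase Hmox1 (0.94, SE 0.38). DESeq2 called Prdx6 lower (adjusted p = 0.0226). Gclm, the partner subunit of Gclc, was at 65.6 to 134 CPM with Dnmt3a+/+ BM and 79.9 to 107 CPM with Dnmt3a+/Δ BM (log2 fold change -0.05, SE 0.26). Among 9 genes for NRF2, its partners and its repressors, 1 was higher, the small Maf protein Mafg (0.76, SE 0.25), and the median was 0.01, or -0.12 without Dnmt3a+/Δ replicate 4. Nfe2l2, which codes for NRF2, was at 0.21 (SE 0.15), and its repressor Keap1 at 0.08 (SE 0.19).

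Several receptors that switch on pumps in liver and gut were read at lower levels. Of 9 genes for xenobiotic and bile acid receptors and related liver factors, 0 were higher and 4 were lower at an unadjusted p under 0.05, against 5.83% and 5.20% of all genes. The median log2 fold change was -0.66, but -0.21 without Dnmt3a+/+ replicate 2, -0.32 with the experiment as covariate and -0.17 at a minimum count of 50. They were Nr1i2 (PXR; -0.83, SE 0.31), Nr1i3 (CAR; -1.47, SE 0.47), Nr1h4 (FXR, the bile acid receptor; -1.01, SE 0.33) and Hnf4a (-0.86, SE 0.25). Hnf4a was at 479, 765 and 412 CPM with Dnmt3a+/+ BM and at 290, 255, 378 and 291 CPM with Dnmt3a+/Δ BM, a gap opposite in direction to that of Abcc2. Of the 6 genes of the apical membrane scaffold that holds Abcc2, 0 passed in either direction. The most abundant were ezrin (Ezr, -0.54, SE 0.26) and Slc9a3r1 (-0.47, SE 0.31), but of the 6, 3 had a log2 fold change above 0 and 3 below. The median of the 6 was 0.23, or 0.08 without Dnmt3a+/+ replicate 2 and -0.13 at a minimum count of 50.

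Genes for the cofactor and for 1 kind of substrate of aldehyde oxidases were read too. Over all genes, 5.83% were higher and 5.20% lower at an unadjusted p under 0.05. Of 6 genes of molybdenum cofactor synthesis, 0 passed an unadjusted p under 0.05, with a median of -0.12, or 0.09 with library sizes alone, and the most abundant, Mocs2, was at 58.4 to 76.6 CPM and 51.3 to 76.5 CPM. Of 4 tested genes for other molybdenum enzymes, 0 passed (median -0.29). Xdh, the xanthine dehydrogenase from whose family the oxidases derive, was at 103 to 124 CPM and 49.2 to 142 CPM (-0.47, SE 0.34), and Marc2 at -0.35 (SE 0.22). Of 8 tested genes of retinal and retinoic acid metabolism, 1 was higher, Cyp26b1, which clears retinoic acid (1.21, SE 0.49), and the median was 0.04, or -0.14 and 0.60 without Dnmt3a+/+ replicate 2 and 1. The retinal dehydrogenase Aldh1a3, the most abundant of them, was at 318 to 716 CPM and 335 to 644 CPM (-0.08, SE 0.36).

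Markers of cell types that are known to carry the members were read beside them. For squamous epithelium, 0 of 10 genes passed an unadjusted p under 0.05 in either direction. Over all genes, 5.83% were higher and 5.20% lower at that threshold. The squamous median of 0.07 rested on single tumors, being -1.68 without Dnmt3a+/Δ replicate 1 and 1.14 without Dnmt3a+/+ replicate 1. Squamous marker sums were 29688, 273, 5614 and 5334 CPM in Dnmt3a+/Δ replicates 1 to 4, where Aox4 was at 2.17, 7.46, 4.49 and 3.73 CPM. They were 26824, 5045 and 5627 CPM in Dnmt3a+/+ replicates 1 to 3, where Aox4 was at 0.484, 0.39 and 0.734 CPM. The part of squamous cells in the level of Aox4 was not tested. For hepatocytes, the 10 genes summed to 27.3 to 62 CPM over the 7 tumors, with Ttr at 8.96 to 30.9 CPM and Tat at 10.2 to 17.8 CPM, and Fga and Fgb at 0 in all 7. Of the 4 that could be tested, 1 was higher (Alb; 2.17, SE 0.51) and 1 lower (Cps1; -2.17, SE 0.79). DESeq2 called Alb higher (adjusted p = 0.00164). The median was -0.23, or 0.03 without Dnmt3a+/+ replicate 2. Of the small intestinal markers 5 of 10 could be tested, and 0 passed (median -0.12, or 0.07 with library sizes alone and -0.65 without Dnmt3a+/Δ replicate 2).

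Among the markers of the tumor's own cell types, those of endothelium passed most often. Of 10 colon epithelial genes, 1 was higher, Cdx2 (0.79, SE 0.29), and 2 were lower, Cdx1 (-1.15, SE 0.28) and Lgals4 (-0.96, SE 0.38). DESeq2 called Cdx1 lower (adjusted p = 0.0324). The median was -0.57, or -0.34 without Dnmt3a+/+ replicate 3. Of 10 endothelial genes, 7 were higher and 0 lower, led by Pecam1 (1.56, SE 0.46), Kdr (1.90, SE 0.59) and Flt1 (2.34, SE 0.73), against 5.83% and 5.20% of all genes. In DESeq2, 4 of the 10 were called higher: Pecam1 (adjusted p = 0.0357), Cdh5 and Kdr (both 0.0324) and Flt1 (0.0237). The median of the 10 endothelial genes was 1.74, and it was smaller but still positive without Dnmt3a+/Δ replicate 2. Their summed CPM was 20.9 to 41.6 with Dnmt3a+/+ BM and 37.6 to 189 with Dnmt3a+/Δ BM. Fibroblast markers were higher for 1 of 9 genes, Pdgfra (2.10, SE 0.82), which was at 49.2 CPM in Dnmt3a+/Δ replicate 2 and 6.03 to 13.7 CPM in the other 3. Their median was 0.79, or 0.20 without that tumor. Leukocyte markers, which include those of the graft, passed for 0 of 10 genes (median 0.36, or -0.09 without that tumor). Smooth muscle markers passed for 0 of 8 genes (median 0.10, or -0.46 and -0.56 when replicate 3 of Dnmt3a+/+ or of Dnmt3a+/Δ was left out). The part of these cell types in the levels of Aox4, Abcc2, Abcc3 or Abcc4 was not tested.

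The genes most like Aox4 and Abcc2 across the 7 tumors were named by the root mean square (RMS) distance between centred log2 CPM profiles, among 15809 other genes. For Aox4 they were Sdk2, a neural adhesion molecule, the β-tubulin Tubb4a, Nhs and Zfp469, at distances of 0.33 to 0.39. The profile of Aox4 itself had an RMS of 1.51 about its mean. For Abcc2 they were the adenylyl cyclase Adcy1, the ETS factor Etv5, the proteoglycan Spock2 and Bean1, at distances of 0.22 to 0.27, where Abcc2 itself had an RMS of 1.23. Etv5 was at 12.7, 13.6 and 13.8 CPM with Dnmt3a+/+ BM and at 34.2, 162, 75.9 and 39.4 CPM with Dnmt3a+/Δ BM, the order of tumors seen for Abcc2 in the latter. Abcc2 ranked 9 from Aox4, and Aox4 ranked 48 from Abcc2. Aox1, the neighbour of Aox4 in family and place, ranked 987 of 15809 from it, and Nqo1 ranked 14376. The distance depends on the size of the difference between BM genotypes, with log2 fold changes of 3.06 for Aox4, 2.44 for Abcc2 and 1.09 for Aox1. Aox4 and Abcc2 were picked on this contrast in these tumors, so their closeness is a description and no evidence of a link.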

How the data were processed

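Polyadenylated RNA of 7 whole colon tumors was sequenced from directional libraries. Reads had been trimmed with Trimmomatic, aligned with STAR to mm10 and counted with RSEM, and the authors deposited estimated counts per gene, without normalization, as whole numbers. The strand setting of the counting is not given in the sources used here. Symbols, positions and exon lengths came from GENCODE M21, which matched 42462 of 43346 identifiers, and genes without a symbol held 0.104% of counts. Total counts were 38472738 to 64314999 per tumor.

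Counts were fitted with edgeR 4.0.16 in R 4.3.3 (TMM, filterByExpr, quasi-likelihood test, Benjamini-Hochberg adjustment over 15810 genes), without covariates between BM genotypes and with genotype as a covariate between experiments. Calls needed an adjusted p below 0.05 and a log2 fold change beyond 1 in either direction. DESeq2 1.42.0 was an alternative, as were other scalings and filters, robust dispersion, the experiment as covariate, the replicate number as a block, BMT18 alone and each tumor left out. Both tools were tested on simulated data with the same dispersion for every gene and no outlying tumor. Changes were put only into genes with many counts. That test does not bear on the gap between the tools or on genes with few counts. No pair of tumors was a duplicate. Log2 CPM used a prior count of 2. The interval of the Aox3 ratio is exact (Clopper-Pearson) and covers counting error only.

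The members and the 17 gene lists were chosen with earlier results of these data known. The named genes were set by rule: all members; from each list up to 3 genes with the lowest unadjusted p under 0.05, or else abundant ones; the 4 nearest profiles of Aox4 and Abcc2; 3 protein-coding neighbours on each side of the Aox cluster; and any gene of a count of 5 or fewer. Dnmt3a, Abcb1a, Gclm, Nfe2l2, Keap1, Aldh1a3 and defining markers at or near 0 were named beyond it, with their values seen. Results on certain items are not reported here.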

Additional observations from a re-analysis of the deposited data

Results flagged for a closer look

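In 26 sets of 4 Dnmt3a+/Δ tumors (the CPM of each member and the mean log2 CPM of each list), the highest or lowest tumor was checked for its distance from the others, and 3 stood apart by Dixon's criterion. Chance alone gives about 1 in 20. All 3 were Dnmt3a+/Δ replicate 2. Abcc3 was at 43.4 CPM in it, with the other 3 between 96.1 and 102 CPM. Abcc4 was at 128 CPM in it, with the other 3 between 59.8 and 66.5 CPM. The fibroblast markers had a mean log2 CPM of 5.94 in it, and their summed CPM was 1091. Groups of 3 tumors were not examined. No member's difference between BM genotypes passed the adjusted threshold in the test of the interaction with experiment.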

How the results depend on the processing

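Under edgeR, 0 genes were called between the BM genotypes in every alternative run, and 922 were higher and 822 lower at an unadjusted p under 0.05. DESeq2 called 300, or 485 with the experiment as covariate, and 231, 63 or 441 without Dnmt3a+/+ replicate 1, 2 or 3, and 697, 171, 201 or 259 without Dnmt3a+/Δ replicate 1, 2, 3 or 4; the covariate and left-out fits were added after seeing the data. Aox4 and Abcc2 were called in all 9 DESeq2 fits, at log2 fold changes of 2.72 to 3.38 and 2.12 to 2.64, and in none by edgeR; Aox3 had no adjusted p in the DESeq2 fit of all tumors. The cause of the gap between the tools was not tested. Of 191 alternative values for the 8 tested members, 167 kept direction and call, 18 gained a call and 6 reversed, all of Gclc with a tumor left out: it ran from -0.25 to 0.34 in edgeR (-0.09 and -0.17 without Dnmt3a+/+ replicate 2 or 3), and in DESeq2 it was -0.06 and -0.14 without those and -0.26 without Dnmt3a+/Δ replicate 1. Library sizes without TMM moved the median of all genes to 0.21, and Abcc3 to -0.60.

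Between experiments, DESeq2 called 509 genes and edgeR without a filter 14, and leaving out a tumor gave 0 to 72 calls: 0 without any Dnmt3a+/+ tumor in turn or Dnmt3a+/Δ replicate 3, 2 without replicate 4 and 72 without replicate 2 of the latter group. Of 111 member values 8 reversed, none called: Aox4 to -0.02 (library size only) and Abcc2 to 0.05 (no genotype term), and the others with a tumor left out, where Aox4 ran from -0.25 to 0.88, Abcc1 from -0.31 to 0.40, Abcc2 from -0.51 to 0.33 and Abcc4 from -0.68 to 0.11. Of 272 list medians 15 moved beyond the spread between tumors, among them that of the NRF2 targets, to 0.16 without Dnmt3a+/+ replicate 3, and that of the receptors, to -0.17 at a minimum count of 50. On plain CPM, Abcc2 made up 9.89% and Aox4 73.5% of their families in the Dnmt3a+/Δ tumors, against 8.63% and 71.6% per kb.

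Deviations of same-numbered tumors had correlations of 0.484, 0.0111 and 0.184, and those of unlike-numbered tumors ran from -0.358 to 0.214. Whether the numbers pair the tumors is not settled by these values. The fit with the replicate number as a block, without Dnmt3a+/Δ replicate 4, called 0 genes. With at most 26 counts per Dnmt3a+/+ tumor, depth limits what can be said of Aox1, Aox3 and Aox4 there.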
